A study of Homo sapiens with 8 samples.

Results

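The genes described here encode the enzymes of the tricarboxylic acid (TCA) cycle, the steps that bring pyruvate into it, and the reactions that refill the cycle or draw carbon from it. They were chosen by name, from a list of 36 gene symbols. The rule used no measured value, but the list was drawn up with earlier results of these data known. Transcripts of 35 of the 36 were found among the 14528 genes named in the table. The malic enzyme gene ME3 was not analysed here. SQ20B is an established cell line from a human head and neck squamous cell carcinoma, and poly(A) RNA was sequenced from 4 normoxic samples and from 4 samples kept in 0.5% O2 for 16 h. Both groups were the same line in the same high-glucose medium, and the labels name no genetic change or drug. The table gives 1 FPKM value (fragments mapped to a transcript, divided by its length and by the depth of the library) per transcript and condition, pooled over the 4 replicates by the authors. No replicate spread could therefore be computed, and every value below stands without an error, an n of its own or a test. Words such as higher and lower compare 2 pooled numbers only.

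In the mitochondrial matrix, pyruvate dehydrogenase turns pyruvate into acetyl-CoA, citrate synthase joins that to oxaloacetate, and the cycle returns oxaloacetate while electrons pass to NAD+ and to the respiratory chain. Succinate dehydrogenase is both a cycle enzyme and respiratory complex II. Under low oxygen, cells with stabilised hypoxia-inducible factor (HIF) are known to divert pyruvate to lactate, largely by raising the kinases that switch pyruvate dehydrogenase off, and glutamine can then feed the cycle through 2-oxoglutarate.

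Changes are given as log2((hypoxia FPKM + 0.1)/(normoxia FPKM + 0.1)) after adding up the FPKM of each gene's transcripts, so that a negative value means lower in hypoxia. A gene was called when it differed by at least 1.5-fold. Of the 35 genes, 25 lay below 0 and 10 above it, and all 35 had a mean FPKM of at least 0.5. Those below 0 were 71.4% of the members, against 56.4% of all genes at that limit. Only 2 were called higher, IDH2 and PDPR, which is 5.71% of the members against 9.95% of all 12106 genes at that limit. The genes called lower were 5, namely IDH3A, FH, MPC1, SDHB and GOT2, or 14.3% against 11.2% of all genes. Neither share stood far from its background, and no member differed by 2-fold except IDH2. The median log2 change of the members was -0.19 and that of all genes was -0.07. Most members were abundant, with 32 of 35 above the median level of all genes (9.23 FPKM). Among genes at 10 FPKM or more, 5.09% were called higher and 13.1% lower, with a median change of -0.18, and the 30 members at that level had 1 called higher, 5 called lower and a median of -0.29. At that level 76.7% of the members and 68.3% of all genes lay below 0.

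The deposited columns did not have equal totals, with 536005 FPKM in normoxia and 458431 in hypoxia over all listed transcripts. Scaling them to the same sum added 0.23 to almost every log2 change and moved the median of all genes to 0.15. The 5 genes called lower then fell short of 1.5-fold, 4 genes were called higher (IDH2, PDPR, ACLY and ACO1), and the members' median became 0.04. Under the same scaling 18.6% of all genes were called higher and 4.99% lower. Quantile normalization also left no gene called lower. Absolute directions of small changes thus depend on the scaling, whereas ratios between genes within a condition do not depend on the column totals. Together the 35 genes held 0.503% of the listed FPKM in normoxia and 0.482% in hypoxia.

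**Figure D1:**
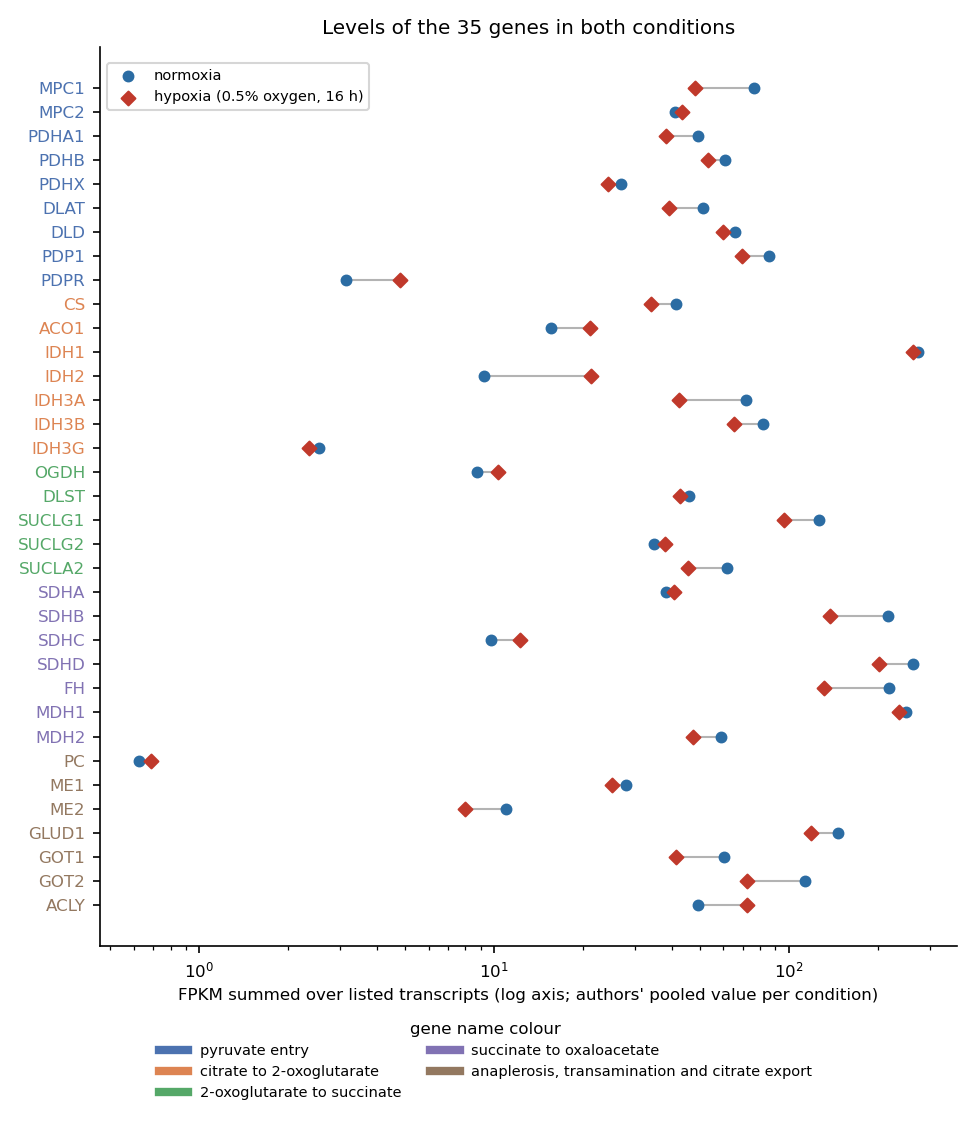
Summed FPKM of each of the 35 genes (log axis) in normoxia (blue circles) and hypoxia (red diamonds), with gene names coloured by step; each point is the authors' pooled value for 4 replicates, so there are no error bars. IDH1, SDHD and MDH1 are the most abundant in both conditions, PC is the least, and IDH2 has the widest gap to the right, from 9.23 to 21.4.

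The condition labels and the cell type were checked first. All 9 listed hypoxia genes of a 10-gene check list, among them CA9, NDRG1 and EGLN3, were called higher in hypoxia, with log2 changes from 1.02 to 5.58. Squamous markers were present, with KRT5 at 398 FPKM, CDH1 at 61.1, KRT17 at 50.5 and TP63 at 42.8 FPKM in normoxia. KRT6A was scarcer and past 1.5-fold, at 5.10 FPKM with normal oxygen and 3.26 in hypoxia (-0.63). So was ITGB4, at 2.06 and 3.79 FPKM (0.85). These were 6 of the 8 markers on that list, and KRT14 and EGFR were not analysed here. Of 9 fibroblast and leukocyte markers, only LUM and LYZ were listed, at no more than 0.476 FPKM, and the others were not analysed here.

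To show the sequence beside the values, the bases upstream of the annotated start of the canonical transcript were read from GRCh37 (the assembly of hg19, the build of the table) for genes at both ends of the range. They are printed 5′ to 3′ on the strand of the gene. Capitals mark ACGTG or its other strand CACGT, a form of the core letters of the element that HIF binds. The form with G first, GCGTG, was not searched, marked or counted here, and it occurs in the IDH3A run. IDH2 is shown as the member with the highest log2 change, IDH3A and FH as those with the lowest, and GOT2 as the gene called lower that had the letters. Each of these 4 runs stops at the annotated start or where the listed locus begins, whichever comes first. The PDPR run is a short stretch around its letters, inside the listed locus. The runs lie at chr15:90645709-90645900 (IDH2, minus strand), chr15:78441504-78441703 (IDH3A, plus), chr1:241683086-241683255 (FH, minus), chr16:58768262-58768420 (GOT2, minus) and chr16:70148065-70148094 (PDPR, plus).
IDH2: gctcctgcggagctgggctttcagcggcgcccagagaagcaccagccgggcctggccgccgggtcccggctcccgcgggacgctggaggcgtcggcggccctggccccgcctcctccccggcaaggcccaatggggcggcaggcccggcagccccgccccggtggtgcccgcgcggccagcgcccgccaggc
IDH3A: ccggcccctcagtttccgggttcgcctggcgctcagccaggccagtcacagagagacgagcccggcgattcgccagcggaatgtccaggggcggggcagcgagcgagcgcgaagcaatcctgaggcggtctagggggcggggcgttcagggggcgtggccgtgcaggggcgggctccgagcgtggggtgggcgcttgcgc
FH: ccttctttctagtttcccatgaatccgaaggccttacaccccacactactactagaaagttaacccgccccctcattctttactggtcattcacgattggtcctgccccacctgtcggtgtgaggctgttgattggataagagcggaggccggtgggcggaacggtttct
GOT2: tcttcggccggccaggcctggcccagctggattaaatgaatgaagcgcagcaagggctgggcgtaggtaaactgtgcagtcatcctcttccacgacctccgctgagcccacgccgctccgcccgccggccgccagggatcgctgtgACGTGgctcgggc
PDPR: ccaaacaagccCACGTGgcaggggcggggc

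In 250 bases before the start, 10 of the 36 genes (27.8%) held the letters ACGTG on either strand, against 23.6% of 11055 windows of genes at 0.5 FPKM or more. The 10 were PDHB, PDHX, DLAT, PDP1, PDPR, IDH3G, OGDH, PC, ME3 and GOT2. Neither IDH2 nor the lower genes IDH3A, FH, MPC1 and SDHB had them in this window. The PDPR letters began 159 bases before the annotated start. An ETS-type sequence, CCGGAAG or its other strand CTTCCGG, lay in the windows of 7 genes (19.4%, against 17.2% of all windows), namely IDH3B, IDH3G, DLST, SDHB, SDHD, MDH2 and ME2. Letters of the NRF1 type, CGCATGCG, which read the same on both strands, were found before SDHD alone among the members (2.78% against 3.76%). A match of letters is a description, not a binding site.

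Pyruvate enters the matrix through a carrier built from MPC1 and MPC2. MPC1 (chr6:166778408-166796501) stood at 76.4 FPKM with normal oxygen and 47.9 in hypoxia, 1.59-fold lower (log2 change -0.67). Its partner MPC2 was listed at 41.1 and 43.5 FPKM (0.08). The excess of MPC1 over MPC2 narrowed accordingly, from a ratio of 1.86 in normoxia to 1.10 in hypoxia, which no constant scaling of a column can alter.

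The 5 genes for the pyruvate dehydrogenase complex were all lower, by little, with log2 changes between -0.38 and -0.13, and none was called. Of all genes at 10 FPKM or more, 68.3% also lay below 0. PDHA1, the catalytic alpha subunit that the kinases phosphorylate, was listed at 49.2 FPKM with normal oxygen and 38.3 in hypoxia (-0.36). PDHB, the beta subunit, stood at 60.5 and 53.2 (-0.19). DLAT, the acetyltransferase core, stood at 51.1 and 39.3 (-0.38). PDHX, which tethers the dihydrolipoamide dehydrogenase to that core, had 27.0 and 24.3 FPKM (-0.15). DLD, the dehydrogenase itself, which also serves the 2-oxoglutarate complex, had 65.6 and 59.8 FPKM (-0.13). The ratio of PDHA1 to PDHB went from 0.813 to 0.721, that of DLAT to PDHX from 1.89 to 1.62 and that of DLD to DLAT from 1.28 to 1.52. With equal column sums, PDHB, PDHX and DLD lay just above 0.

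The complex is switched on by phosphatases, of which PDP1 is a catalytic subunit and PDPR the regulatory one. PDP1 was listed at 85.8 FPKM with normal oxygen and 69.5 in hypoxia (-0.30), and PDP2, another catalytic subunit, at 5.88 and 4.49 (-0.38). PDPR (chr16:70147529-70195184) went the other way, at 3.15 and 4.81 FPKM, 1.51-fold apart (log2 change 0.59), which is just past the limit but not with 1 FPKM added in place of 0.1 or after quantile normalization. A near-identical copy, PDPR2P, was listed at 1.87 and 1.83 FPKM, and reads of the pair can be shared. The opposing kinases were on the list of other pathway genes. PDK1 was higher, at 6.20 and 20.8 FPKM (1.73), as was PDK3, at 9.21 and 15.7 (0.76), so that the ratio of PDP1 to PDK1 was 13.8 in normoxia and 3.34 in hypoxia. PDK2, at 0.399 and 0.422 FPKM (0.06), and PDK4, at 0.371 and 0.629 (0.63), had means below the 0.5 FPKM limit.

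**Figure D2:**
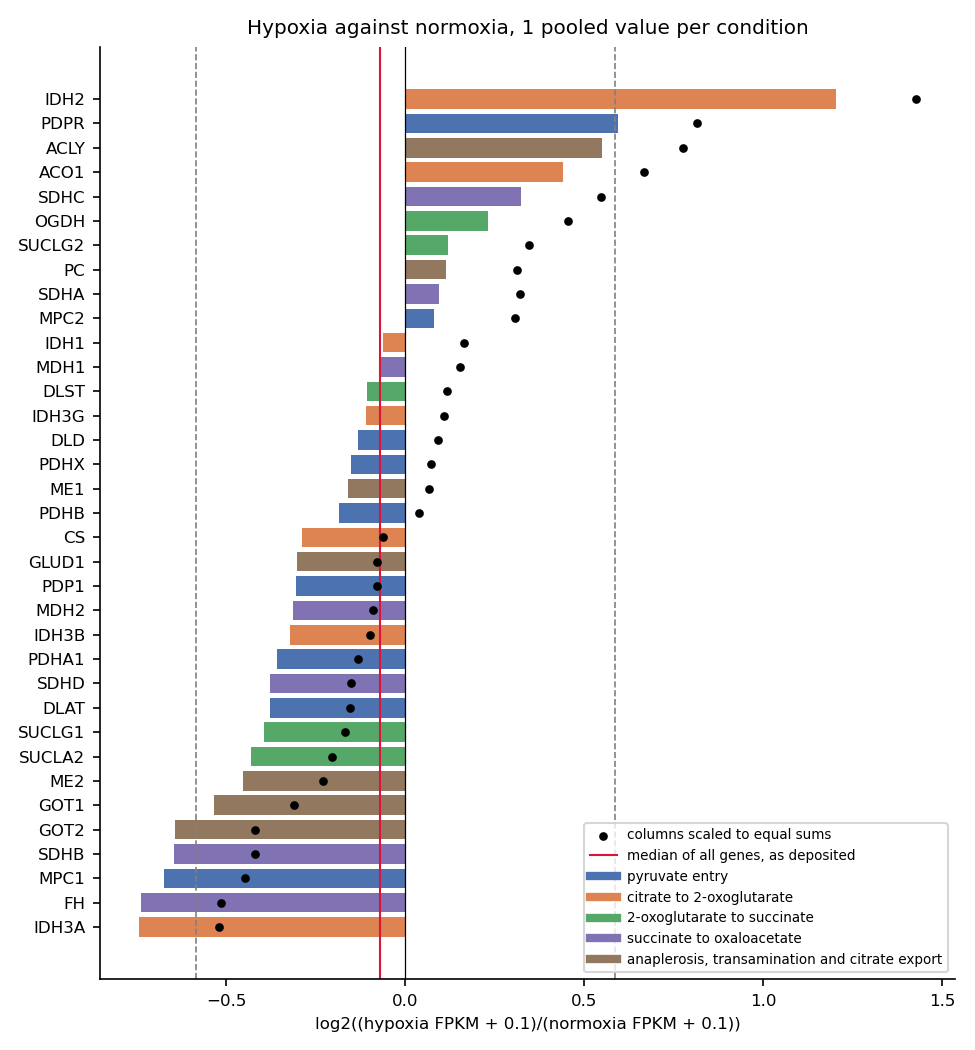
Log2 change of each gene (bars, coloured by step; hypoxia against normoxia, 1 pooled value per condition, no error bars), with dashed lines at 1.5-fold, a red line at the median of all genes and black points after scaling the columns to equal sums. IDH2 stands apart at the top with 1.202, IDH3A and FH are lowest at -0.74, and no black point lies below the lower dashed line.

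Citrate synthase, CS, which starts the cycle, was listed at 41.5 FPKM with normal oxygen and 34.0 in hypoxia (-0.29). ACO1, the cytosolic aconitase that doubles as an iron-regulated RNA-binding protein, was higher, at 15.5 and 21.1 FPKM (0.44).

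The isocitrate dehydrogenases differed most among themselves. IDH2 (chr15:90627211-90645708), the NADP-dependent mitochondrial enzyme, was listed at 9.23 FPKM with normal oxygen and 21.4 in hypoxia, 2.301-fold apart (log2 change 1.202), higher than that of 97.9% of all genes. Both of its listed transcripts had similar changes, 1.19 for NM_001289910, which held 91.3% of the gene's FPKM in normoxia and 90.3% in hypoxia, and 1.27 for NM_002168. IDH1, the cytosolic counterpart and the most abundant member, had 274 and 263 FPKM (-0.06). The ratio of IDH1 to IDH2 thus went from 29.7 to 12.3.

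The NAD-dependent enzyme of the cycle proper is built from IDH3A, IDH3B and IDH3G. IDH3A (chr15:78441719-78462884), the catalytic subunit, had the lowest log2 change of all members, at 71.3 and 42.5 FPKM, 1.67-fold apart (log2 change -0.74). IDH3B was listed at 81.4 and 65.1 FPKM (-0.32), and IDH3G at only 2.55 and 2.36 (-0.11). IDH3A to IDH3B moved from 0.876 to 0.654. Set against the mitochondrial NADP enzyme, IDH3A was 7.72 times as abundant as IDH2 in normoxia and 1.99 times in hypoxia, the widest shift in ratio among the pairs of members compared.

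From 2-oxoglutarate to succinate, none of the 5 genes was called. OGDH, the first enzyme of the 2-oxoglutarate dehydrogenase complex, was listed at 8.78 FPKM with normal oxygen and 10.3 in hypoxia (0.23), and DLST, its succinyltransferase core, at 45.9 and 42.7 (-0.11). SUCLG1, the alpha subunit of succinyl-CoA ligase, had 126.9 and 96.5 FPKM (-0.39). Of the alternative beta subunits, SUCLA2, which makes the ADP-dependent enzyme, had 61.5 and 45.6 FPKM (-0.43), while SUCLG2, which makes the GDP-dependent enzyme, had 34.99 and 38.0 (0.12). The ratio of SUCLA2 to SUCLG2 went from 1.758 to 1.199.

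The subunits of succinate dehydrogenase did not move together. SDHA, the flavoprotein that oxidises succinate, was listed at 38.2 FPKM with normal oxygen and 40.8 in hypoxia (0.09). SDHB (chr1:17345225-17380665), the iron-sulphur subunit bound to it, was listed at 216 and 138 FPKM, 1.56-fold lower (log2 change -0.65). The membrane anchors also parted, with SDHC at 9.79 and 12.3 FPKM (0.32) and SDHD at 264 and 203 (-0.38). The ratio of SDHB to SDHA was 5.67 in normoxia and 3.39 in hypoxia, and that of SDHB to SDHC was 22.1 and 11.3. In these ratios the abundant subunits SDHB and SDHD came closer to the scarce ones. SDHA has near-identical copies, SDHAP1, SDHAP2 and SDHAP3, each listed at no more than 1.40 FPKM, and reads of these genes can be shared.

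**Figure D3:**
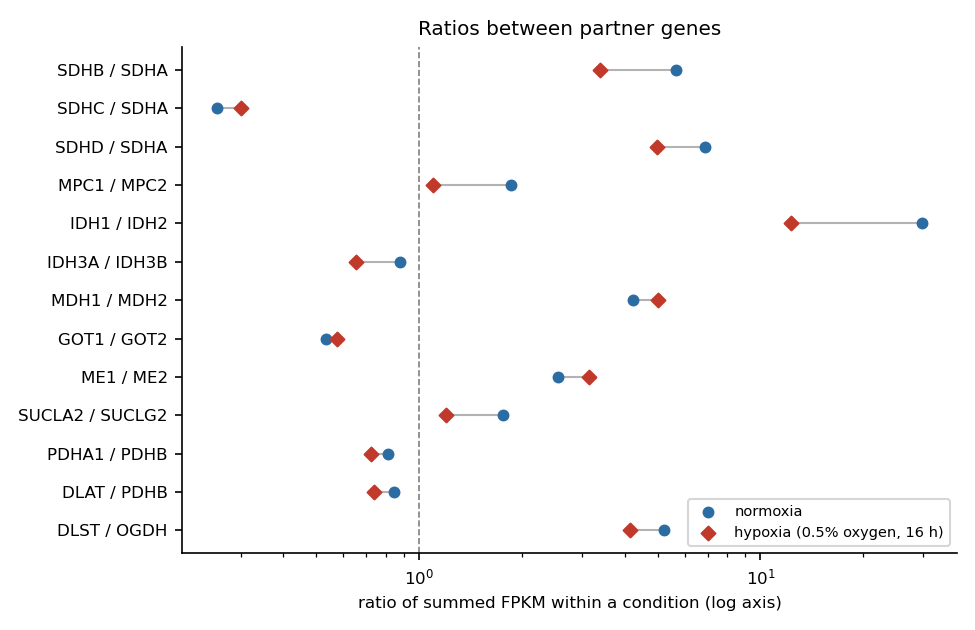
Ratio of the summed FPKM of partner genes within normoxia (blue circles) and within hypoxia (red diamonds) on a log axis; the dashed line marks equal levels, and values are pooled over replicates, without error bars. Of the pairs drawn, the IDH1 to IDH2 ratio shifts furthest, from 29.7 to 12.3, while GOT1 to GOT2 hardly moves, from 0.533 to 0.574.

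FH (chr1:241660857-241683085), the fumarase that makes malate, stood at 219 FPKM with normal oxygen and 131 in hypoxia, 1.67-fold lower (log2 change -0.74). It remained among the 5 most abundant members. Of the malate dehydrogenases, MDH2 of the mitochondria was listed at 58.7 and 47.2 FPKM (-0.31). MDH1 of the cytosol was listed at 249 and 237 FPKM (-0.07), and its ratio to MDH2 went from 4.24 to 5.01.

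Aspartate aminotransferases link these enzymes in the malate-aspartate shuttle, which carries reducing power into mitochondria. GOT2 (chr16:58741035-58768261), the mitochondrial form, was listed at 113 FPKM with normal oxygen and 72.3 in hypoxia, 1.56-fold lower (log2 change -0.64). GOT1, the cytosolic form, was close to the limit at 60.2 and 41.5 FPKM (-0.53). Both transaminases were thus lower by similar amounts. The carriers of the same shuttle, from the list of other genes, were lower too. SLC25A11, which exchanges malate for 2-oxoglutarate, stood at 21.2 and 10.0 FPKM (-1.07), SLC25A12 at 10.1 and 5.97 (-0.74), and SLC25A13 at 55.1 and 36.4 (-0.60). With equal column sums, the change of SLC25A11 was -0.84, that of SLC25A12 was -0.52 and that of SLC25A13 was -0.37. Those of GOT2 and GOT1 were then -0.42 and -0.31, and neither was called. As deposited, 56.4% of all genes at 0.5 FPKM or more lay below 0 and 11.2% were called lower.

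Among genes that refill the cycle, PC, the pyruvate carboxylase that makes oxaloacetate directly, was the least abundant member, at 0.624 FPKM with normal oxygen and 0.684 in hypoxia (0.11). GLUD1, the glutamate dehydrogenase that yields 2-oxoglutarate, was listed at 147 and 119 FPKM (-0.30). Its near-identical copy GLUD2 was listed at 4.10 and 3.41 FPKM, and reads of these genes can be shared. Malic enzymes return malate to pyruvate, with ME1 of the cytosol at 28.0 and 25.1 FPKM (-0.16) and ME2 of the mitochondria at 11.0 and 7.99 (-0.45).

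ACLY, which splits exported citrate into acetyl-CoA and oxaloacetate in the cytosol, was higher, at 49.3 FPKM with normal oxygen and 72.3 in hypoxia, a log2 change of 0.55 just short of the limit. ACLY was called higher with equal column sums (0.78), when median centred (0.62), after quantile normalization (0.77) and with the most abundant transcript (0.72). Among the members its level went from rank 19 to rank 9. The ratio of CS to ACLY went from 0.843 to 0.471. Its listed transcripts differed, with NM_198830 at 31.9 and 52.7 FPKM (0.72) and NM_001096 at 17.4 and 19.6 (0.17).

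The 6 members with cytosolic products (ACO1, IDH1, MDH1, ME1, GOT1 and ACLY) had a median log2 change of -0.07, and the 29 analysed members with mitochondrial products had one of -0.30. All 7 called genes belonged to the mitochondrial set, which held 29 of the 35 analysed members. In that set 6.90% were called higher and 17.2% lower, against 9.95% and 11.2% of all genes. GOT1 and ACLY of the small cytosolic set were close to the limit. With equal column sums, ACLY and ACO1 of the cytosolic set were called higher beside IDH2 and PDPR, and no gene was called lower. By step, the medians were -0.19 for pyruvate entry, -0.11 from citrate to 2-oxoglutarate, -0.11 from there to succinate, -0.31 from succinate to oxaloacetate and -0.30 for anaplerosis, transamination and citrate export. Without replicates these differences between sets could not be tested.

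**Figure D4:**
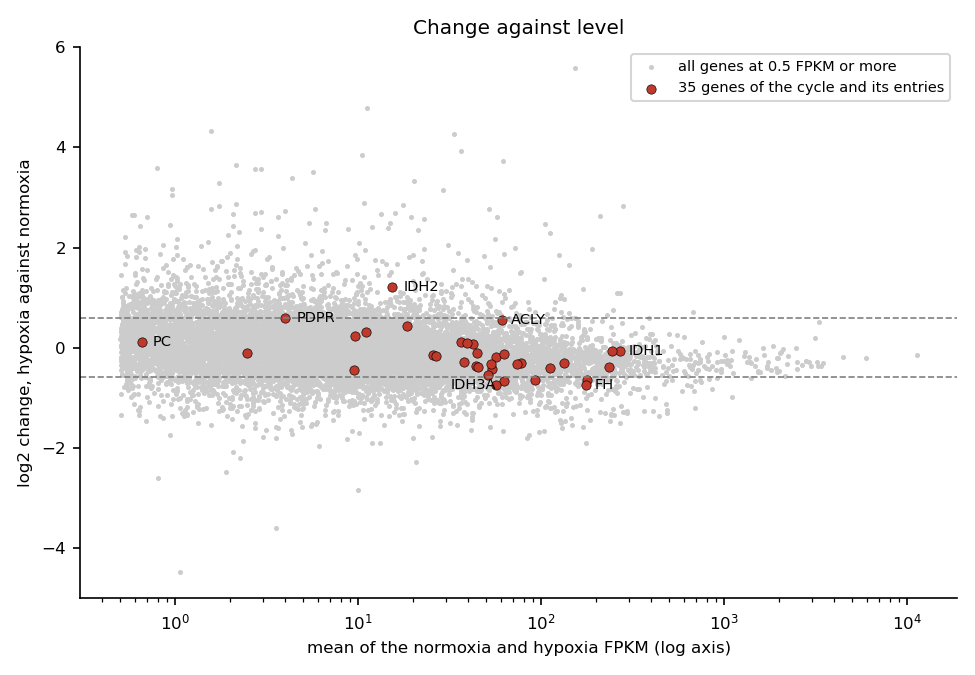
Log2 change (vertical axis) against the mean FPKM of both conditions (log axis) for the 12106 genes at 0.5 FPKM or more (grey) and the 35 members (red), with dashed lines at 1.5-fold. The members lie to the right of most genes, and all but 7 lie between the dashed lines.

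Of the 35 members, 14 had a single listed transcript and 21 had more than 1. In 13 of those 21, the same transcript held over 80% of the FPKM in both conditions. A transcript's share moved by at least 10 percentage points in OGDH and PC only. In OGDH (chr7:44646121-44748669), NM_002541 went from 16.5% to 26.6% of the summed FPKM, while NM_001165036 went from 35.2% to 27.5%. By level, NM_002541 stood at 1.45 FPKM with normal oxygen and 2.74 in hypoxia, a log2 change of 0.87, and NM_001165036 at 3.08 and 2.84 (-0.12). In PC, NM_001040716 went from 56.1% to 78.0% of a low total, 0.350 of 0.624 FPKM in normoxia and 0.534 of 0.684 in hypoxia. In the remaining members with several transcripts the greatest shift was 8.23 points, in ACLY.

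**Figure D5:**
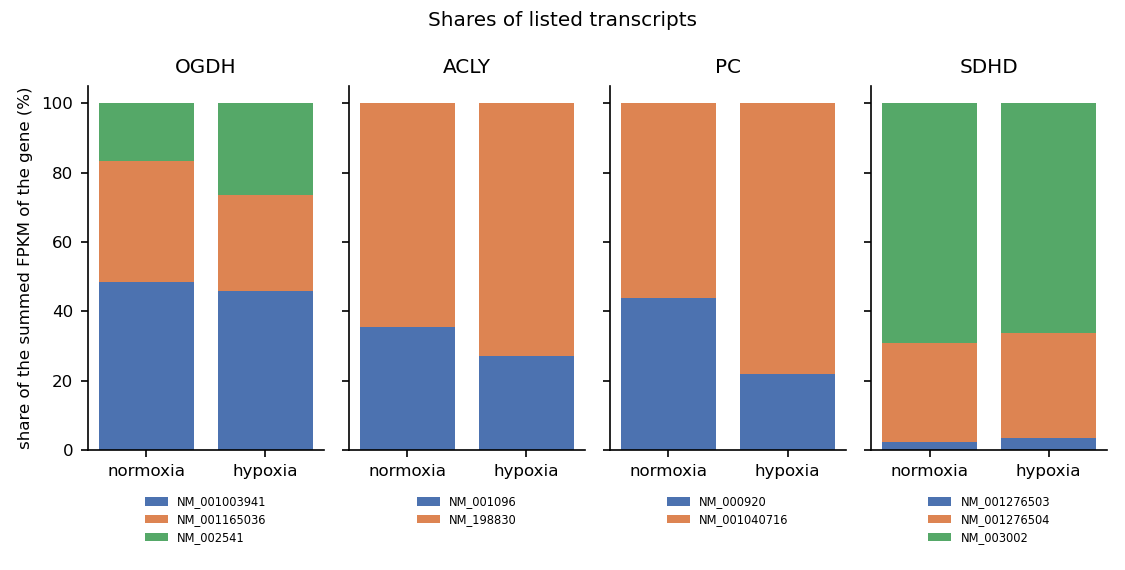
Share of each listed transcript in the summed FPKM of OGDH, ACLY, PC and SDHD in normoxia and hypoxia (stacked bars, percent; pooled values, no error bars). The NM_002541 part of OGDH grows from 16.5% to 26.6% and the NM_001040716 part of PC from 56.1% to 78.0%, while the parts of SDHD differ by about 3 points.

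A list of 35 further genes of the pathway, such as kinases, carriers, lipoylation and assembly factors, had 29 analysed genes and 25 at 0.5 FPKM or more. Of these, 4 were called higher, namely PDK1, PDK3, ACSS1 and ACSS2, and 5 were called lower, namely LIPT1, SLC25A10, SLC25A11, SLC25A12 and SLC25A13, with a list median of -0.26. That is 16% and 20% of the 25, against 9.95% and 11.2% of all genes. With equal column sums, SLC25A11 alone of the 5 stayed past 1.5-fold, and LIPT1 had a change of -0.40 and SLC25A10 of -0.50. LIPT1, a lipoyltransferase that helps to equip the 2-oxoacid dehydrogenases, was listed at 10.0 FPKM with normal oxygen and 6.47 in hypoxia (-0.63). The assembly factors of succinate dehydrogenase SDHAF1, SDHAF2 and SDHAF3 had changes of -0.32, -0.30 and -0.32, and SDHAF4 of 0.08.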

How the data were processed

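Per the labels, poly(A) RNA was sequenced as stranded libraries from 4 normoxic and 4 hypoxic samples. The authors aligned reads to RefSeq hg19 with STAR 2.3.0.1 and ran the Cufflinks 2.1.1 suite with standard parameters, and deposited 1 FPKM value per transcript and condition. The remaining deposited columns (log2 fold change, test statistic, p-value and q-value of the authors' own comparison) were not used. Replicate columns, counts and depths were not analysed here, so no test, error, interval or detection floor is given. The planned limma fit needs single replicates and was replaced by the planned description.

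RefSeq identifiers were paired with symbols through the GRCh38.p14 gene table, for names only, and 24293 of 24812 entries (97.9%) matched. FPKM was summed per gene, 0.1 was added, and genes with a mean below 0.5 FPKM were left out. Calls required 1.5-fold. The sum and change were tested on simulated data without noise, which checks the arithmetic only. Locus starts were counted from 0 in the table (with 1 added, 5320 of 12882 matched an annotated transcript start, against 637 as listed) and are printed from 1. A listed locus can span overlapping genes. Promoter windows came from GRCh37 with GENCODE v44lift37 canonical coding transcripts, 250 bases each in place of the planned 300 base windows, which were of another build. ETS and NRF1 motifs were added after the values were seen.

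All members were named, with transcripts whose share moved by 10 points, and other pathway genes past 1.5-fold or paired with a member. The SDHAF genes, PDK2, PDK4 and SLC25A1 were named after their values were seen. Some genes of the pathway are not reported here. Members and lists were chosen with earlier results of these data known. Python 3.11.15, numpy 2.4.6, pandas 2.3.3 and matplotlib 3.10.9 were used.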

Additional observations from a re-analysis of the deposited data

How the results depend on the processing

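Each alternative changed 1 choice. The count of genes at least 1.5-fold higher, 2 as reported, was 1 with a pseudocount of 1 and 4 with equal column sums. It was 5 at a fold limit of 1.2, 1 at a limit of 2 and 1 at a mean of at least 10 FPKM. It was 3 with the hypoxia column median centred and 3 with the most abundant transcript. In both of these, ACLY was called beside IDH2 and PDPR. After quantile normalization the count stayed 2, with ACLY in place of PDPR. The count at least 1.5-fold lower, 5 as reported, was 0 with equal sums, 3 with the hypoxia column median centred, 0 with quantile normalization, 17 at a fold limit of 1.2 and 0 at a limit of 2. The members' median, -0.19 as reported, was 0.0393 with equal sums (reversed), -0.0533 with quantile normalization and -0.29 at 10 FPKM or more. The cause of these shifts was not tested. Over all genes, the shares higher and lower were 18.6% and 4.99% with equal sums, 5.94% and 8.52% with a pseudocount of 1, 12.5% and 8.79% when median centred, 10.0% and 9.72% after quantile normalization, 23.8% and 33.0% at 1.2-fold, 3.21% and 2.62% at 2-fold, and 5.09% and 13.1% at 10 FPKM. The 10 FPKM limit was chosen after seeing the data. Equal sums changed the sign of 8 small changes (DLD, DLST, IDH1, IDH3G, MDH1, ME1, PDHB and PDHX), quantile normalization of 6 and median centring of 1 (IDH1). IDH2 stayed called higher under every alternative but no other gene did. Other pseudocounts, filters, the most abundant transcript and coding transcripts alone changed no sign. No paired analysis was possible because the table holds 1 pooled column per condition, and for the same reason no replicate was left out. The reads behind each value were not analysed here, so no floor can be set for low genes such as PC.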

Other observations

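Genes that make acetyl-CoA from acetate, which can replace pyruvate-derived acetyl-CoA, were higher in hypoxia. ACSS2, the cytosolic and nuclear acetyl-CoA synthetase, was listed at 11.7 FPKM with normal oxygen and 32.8 in hypoxia (1.47 on the log2 scale, and 1.70 with equal column sums). ACSS1, the mitochondrial form, was listed at 2.75 and 4.26 FPKM (0.61, and 0.83 with equal sums). The citrate carrier SLC25A1 differed little, at 8.98 and 9.34 FPKM (0.06).

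Noncoding transcripts made up 5 of the 71 listed transcripts of the members, and none exceeded 4.24 FPKM. SLC25A1 was named after its values were seen.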
